A study of Mus musculus with 6 samples.

Results

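Keratin genes were taken from the deposited table as the rows of protein-coding genes whose name is Krt followed by digits alone. This rule gave 49 of the 54532 genes listed, or of 22046 protein-coding genes, and 18 of the 49 had a mean FPKM (counts per length and library size) of at least 0.5 over the 6 tumors and entered the test between groups. The pattern leaves out Krt6a, Krt6b, Krt33a and Krt33b, whose names end in a letter. These 4 genes are given beside the members.

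Keratins are the intermediate filament proteins of epithelial cells. A filament is built from pairs of one acidic type I and one basic type II chain, and the genes of each type lie side by side, type I on mouse chromosome 11 and type II on chromosome 15, with the type I gene Krt18 next to Krt8 as the exception. Simple, single-layered epithelia such as that of the colon use Krt8, Krt18, Krt19 and Krt20, the stratified epithelia of skin, mouth, esophagus and anal canal use the squamous keratins, and hair, nail and tongue papillae use hard or hair follicle keratins.

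RNA-seq was performed on colon tumors induced by azoxymethane (AOM), a carcinogen, and 3 cycles of dextran sulfate sodium (DSS), which damages the colon epithelium. The Tmem173fl/fl AOM+DSS-L group and the Tmem173iΔmye AOM+DSS-L group held 3 tumors each. All of the mice carried floxed alleles of Tmem173, the gene for the innate immune adaptor STING, and all were given tamoxifen (TAM) after the DSS cycles, shortly before sacrifice. Only the Tmem173iΔmye mice carried the TAM-inducible Lyz2-Cre ert2, which acts in myeloid cells, so the epithelium that makes keratins is not the cell type in which the gene was deleted. The mice were on the C57BL/6N background, and the ages that the methods give in weeks are not stated for these groups. The region of the colon each tumor came from is not given in the sources used here.

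Counts per tumor summed to between 15329810 and 16533732, of which keratin genes held 0.891% to 0.982%. Tmem173 itself had 1748, 2911 and 1705 counts in the Tmem173fl/fl tumors and 2291, 2245 and 1953 in the Tmem173iΔmye tumors, and the groups overlapped. All 10 markers of colon epithelium were measured at a mean FPKM over the filter, with Epcam, an epithelial adhesion molecule, between 788 and 1142 FPKM. By Y-linked and Xist counts, Tmem173fl/fl tumor 1 and Tmem173iΔmye tumors 1 and 2 came from males and the remaining 3 tumors from females. In whole tumors, fewer cells of a type and less RNA per cell cannot be told apart. P-values measure the spread between these tumors alone.

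Promoter sequences in RefSeq (GRCm38.p6) were found for 35 of the 49 genes, as 36 windows of the 250 bases before the RefSeq start. They were searched on both strands for the TATA box as the letters TATAAA, for an AP-1 motif as TGANTCA, for the GC box as GGGCGG, and for TTTATG, a hexamer bound by the intestinal Cdx factors. TATAAA was present in 16 keratin windows (44.4%) and in 12.4% of all 32851 promoter windows. TTTATG was present in 15 (41.7%) against 10.8%, TGANTCA in 2 (5.56%) against 6.75%, and GGGCGG in 2 (5.56%) against 32.7%. TATAAA and the reverse of TTTATG share all but their first base, so they cannot match at one place. Below are shown the windows of Krt20, Krt7, Krt84 and Krt90. Krt20, a simple keratin, has a TATA box at -29 from its start. Krt7 holds 4 GC boxes where the other keratins shown hold none. Krt84 holds 5 matches to TTTATG at -231, -223, -96, -65 and -34 from its start, and 1 match to TATAAA on the other strand at -206. The match at -34 reads CATAAA on the strand shown, near the position of the TATA box of Krt20. Matches that read CATAAA also lie at -30 in a window of Krt13, -32 in Krt23 and -33 in Krt75. Such matches count toward TTTATG and not toward TATAAA. Krt90 holds no match and has the smallest p among the keratins below. Capitals mark the matches, on either strand. Krt20 is chr11:99438154-99438403, minus strand, Krt7 chr15:101412153-101412402, plus strand, Krt84 chr15:101532821-101533070, minus strand, and Krt90 chr15:101562951-101563200, minus strand.
Krt20: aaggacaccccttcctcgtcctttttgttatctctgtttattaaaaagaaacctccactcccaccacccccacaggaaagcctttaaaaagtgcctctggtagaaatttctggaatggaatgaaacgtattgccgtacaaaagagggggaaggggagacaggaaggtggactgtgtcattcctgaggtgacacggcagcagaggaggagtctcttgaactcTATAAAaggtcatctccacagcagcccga
Krt7: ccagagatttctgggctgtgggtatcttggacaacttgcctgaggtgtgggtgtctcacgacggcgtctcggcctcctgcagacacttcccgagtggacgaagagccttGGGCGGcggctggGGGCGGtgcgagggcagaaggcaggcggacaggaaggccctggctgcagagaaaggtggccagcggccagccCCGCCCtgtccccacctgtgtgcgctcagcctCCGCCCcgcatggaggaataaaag
Krt84: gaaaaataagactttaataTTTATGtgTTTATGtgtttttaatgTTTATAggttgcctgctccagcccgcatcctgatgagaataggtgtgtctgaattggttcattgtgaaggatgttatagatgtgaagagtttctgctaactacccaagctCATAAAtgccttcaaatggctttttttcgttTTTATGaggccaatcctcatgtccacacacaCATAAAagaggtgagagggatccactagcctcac
Krt90: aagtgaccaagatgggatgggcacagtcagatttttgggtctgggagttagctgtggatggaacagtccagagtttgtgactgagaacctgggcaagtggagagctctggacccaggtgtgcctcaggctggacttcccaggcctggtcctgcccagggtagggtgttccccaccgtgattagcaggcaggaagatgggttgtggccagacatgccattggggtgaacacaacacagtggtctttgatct

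A match describes the letters of these windows and not a site in use. No RefSeq window was matched for Krt87, Krt4, Krt15, Krt16, Krt17 and Krt19, which are named only.

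The simple keratins dominated every tumor. Krt8, the type II keratin of simple epithelia, was listed at 2176, 2129 and 2147 FPKM in Tmem173fl/fl tumors 1, 2 and 3 and at 2419, 2095 and 2111 FPKM in Tmem173iΔmye tumors 1, 2 and 3, and it ranked between 6 and 8 among all protein-coding genes of each tumor. Krt19, the smallest type I keratin, had 1451, 1219 and 1456 FPKM in Tmem173fl/fl and 1478, 1475 and 1403 FPKM in Tmem173iΔmye tumors. Krt18, the usual partner of Krt8, had 556, 679 and 614 FPKM against 800.5, 573 and 571 FPKM. In all 6 tumors the order of these levels was Krt8, Krt19, Krt18 and Krt20, and the ranges of these neighbours over the tumors did not overlap. Krt20, which marks differentiated cells of the intestinal surface, varied most of the 4, with 269.5, 126 and 195 FPKM in Tmem173fl/fl and 256, 216 and 197 FPKM in Tmem173iΔmye tumors. The lowest Krt20 was that of Tmem173fl/fl tumor 2, which also had the lowest Cdx2 (8.60 FPKM against 14.8 to 32.9 in the other tumors), a transcription factor of intestinal identity.

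**Figure D1:**
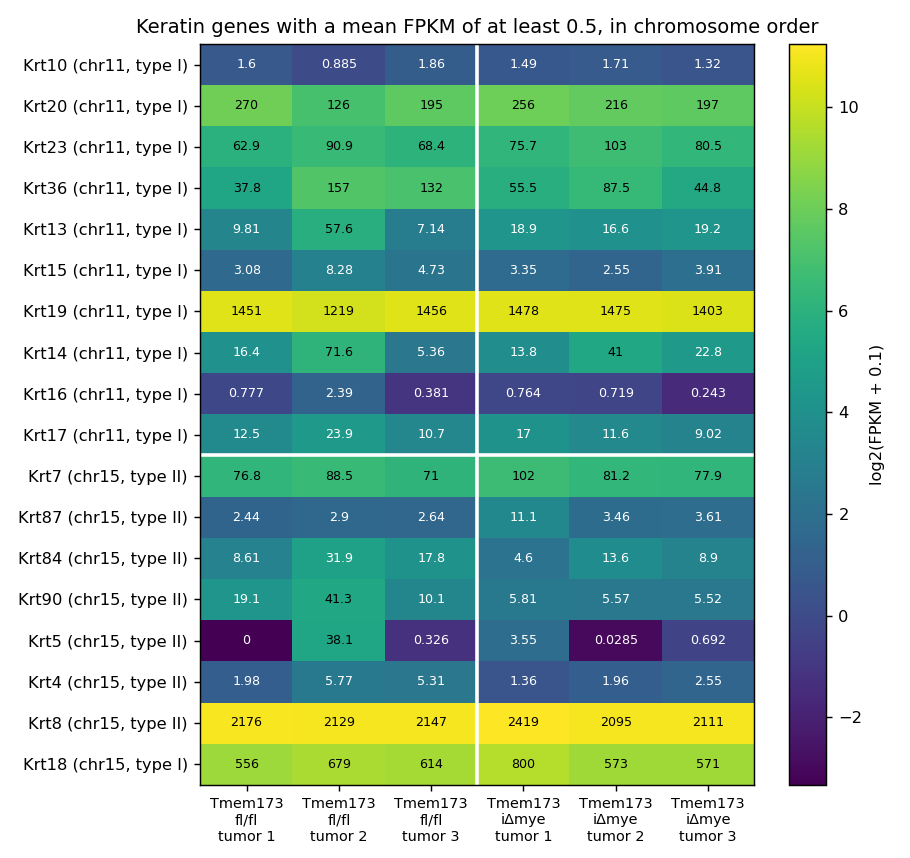
Heat map of the 18 tested keratin genes (rows, in chromosome order) in the 6 tumors (columns), colored by log2(FPKM + 0.1), with the FPKM value printed in each cell. Krt8 and Krt19 lie at 1219 FPKM or above in every tumor, and Krt5 runs from 0 to 38.1 FPKM.

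Between the genotypes, none of the simple keratins differed beyond the spread between tumors, and for each of the 4 the groups overlapped. The mean of Krt8 was 2150.4 ± 23.7 FPKM (SD, n = 3) in Tmem173fl/fl and 2209 ± 183 FPKM (SD, n = 3) in Tmem173iΔmye tumors, a log2 fold change of 0.037 (SE 0.17) for Tmem173iΔmye over Tmem173fl/fl, and edgeR's quasi-likelihood test gave a p of 0.962 after Benjamini-Hochberg adjustment over the 16426 genes tested. That of Krt20 was 197 ± 71.6 FPKM (SD, n = 3) and 223 ± 30.0 FPKM (SD, n = 3), with a log2 fold change of 0.17 (SE 0.27; edgeR, adjusted p = 0.884). The log2 fold changes of Krt19 and Krt18 were 0.076 (SE 0.16) and 0.072 (SE 0.19). All 4 values lay above 0, with a median of 0.074, where the median of all genes tested was -0.0042.

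Krt7, a type II keratin of ducts and other simple epithelia, and Krt23, a type I keratin known from gastrointestinal tumors, formed a second tier. Krt7 had 76.8, 88.5 and 71.0 FPKM in Tmem173fl/fl and 102, 81.2 and 77.9 FPKM in Tmem173iΔmye tumors (log2 fold change 0.14, SE 0.17). Krt23 had 62.9, 90.9 and 68.4 FPKM against 75.7, 103 and 80.5 FPKM (log2 fold change 0.22, SE 0.18). The groups overlapped for both genes.

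Summed per tumor, the 4 simple keratins reached 4452, 4153 and 4412 FPKM in Tmem173fl/fl and 4954, 4359.6 and 4282 FPKM in Tmem173iΔmye tumors. The difference of the mean log2 sums was 0.060 for Tmem173iΔmye over Tmem173fl/fl, against a pooled SD between tumors of 0.090. For the markers of colon epithelium, all 10 log2 fold changes were positive (median 0.22), where 8111 of the 16426 genes tested lay above 0. Their geometric mean was 213, 153 and 167 FPKM in Tmem173fl/fl and 227, 196 and 204 FPKM in Tmem173iΔmye tumors, and the groups overlapped. Relative to these genes, the difference of the simple keratins was -0.19. No spread was computed for that value, and the pooled SD of 0.090 belongs to the sums alone. Among the markers, Vil1, the microvillus protein villin, had 141, 128 and 122 FPKM against 189, 159 and 152 FPKM (log2 fold change 0.35, SE 0.15; adjusted p of 0.742 by edgeR), and Hnf4a, an intestinal transcription factor, had 93.6, 89.3 and 79.9 FPKM against 96.0, 96.4 and 107 FPKM, so every Tmem173iΔmye tumor was higher for both. The groups did not overlap for these 2 of the 10 markers, against 12.4% of all genes tested in either direction. Tspan8, a membrane tetraspanin, and Epcam each had a log2 fold change of 0.24, and that of Cdh1, which encodes E-cadherin, was 0.092. The values of Cdx2 overlapped between the groups. The part of epithelial content in the keratin values was not tested.

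The RNA of type I and of type II genes was present at near equal summed levels, and protein chains were not measured. The 26 type I genes summed to 2423, 2439 and 2497 FPKM in Tmem173fl/fl tumors and to 2722, 2529.9 and 2354 FPKM in Tmem173iΔmye tumors, and the 23 type II genes to 2285, 2339 and 2255 FPKM and to 2549, 2202 and 2212 FPKM. The ratio of type I to type II therefore lay between 1.04 and 1.15 in the 6 tumors. Krt8 alone made up most of the type II sum, whereas the type I sum was shared by Krt19, Krt18 and Krt20.

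**Figure D2:**
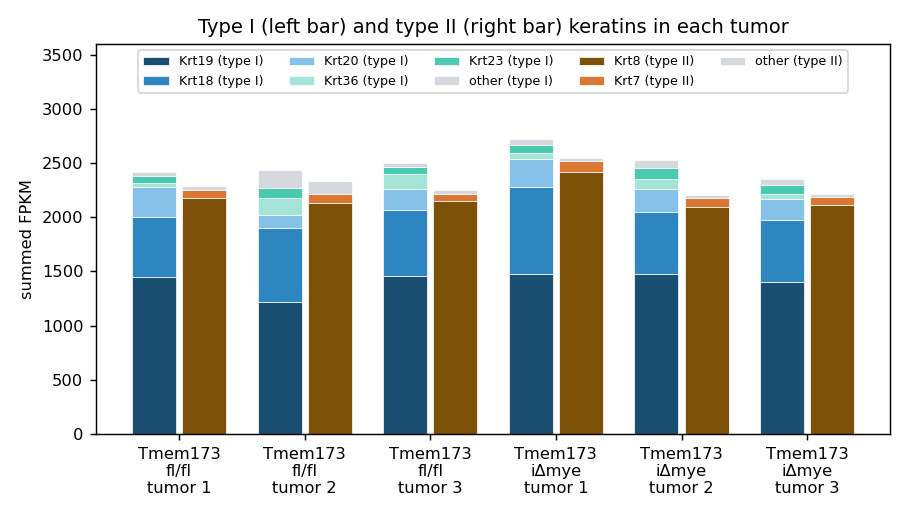
Stacked bars of summed FPKM from 0 for type I (left) and type II (right) keratins in each tumor, split by gene. Both bars stand between 2202 and 2722 FPKM in every tumor, Krt8 fills most of each type II bar, and the other type I segment is largest in Tmem173fl/fl tumor 2.

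Squamous keratins were present at low levels, and 8 of the 15 listed passed the filter. Krt5 and Krt14, the partners of the basal layer of stratified epithelia, differed most between tumors. Krt5 had 0, 1252 and 12 counts in Tmem173fl/fl and 124, 1 and 24 counts in Tmem173iΔmye tumors, so that Tmem173fl/fl tumor 2 held 89.2% of its FPKM over all 6 tumors. A count of 0 allows up to 3 counts, and this limit covers counting error only. Krt14 had 449, 1884 and 158 counts in Tmem173fl/fl and 386, 1153 and 632 counts in Tmem173iΔmye tumors. The 2 partners were not matched in level: Krt14 was 1.88 times Krt5 in FPKM in Tmem173fl/fl tumor 2, 3.89 times in Tmem173iΔmye tumor 1, 16.5 times in Tmem173fl/fl tumor 3 and 32.9 times in Tmem173iΔmye tumor 3. No ratio is given for Tmem173fl/fl tumor 1 and Tmem173iΔmye tumor 2, where Krt5 had 0 and 1 counts.

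The second squamous pair is Krt13 and Krt4, which is made in the upper layers of mouth, esophagus and anal canal. Krt13 had 9.81, 57.6 and 7.14 FPKM in Tmem173fl/fl tumors and 18.9, 16.6 and 19.2 FPKM in Tmem173iΔmye tumors. Again Tmem173fl/fl tumor 2 was highest and the other tumors of that genotype were lowest, with the Tmem173iΔmye tumors close together between them. Krt4 had 66, 184 and 190 counts in Tmem173fl/fl and 46, 67 and 86 counts in Tmem173iΔmye tumors, that is 1.98, 5.77 and 5.31 FPKM against 1.36, 1.96 and 2.55 FPKM. Its log2 fold change was -1.15 (SE 0.43), at an unadjusted p of 0.0304 and an adjusted p of 0.742 from edgeR, and the groups overlapped because Tmem173fl/fl tumor 1 lay among the Tmem173iΔmye tumors. Leaving out Tmem173fl/fl tumor 2 or 3 or Tmem173iΔmye tumor 1 or 2 took Krt4 off the study's threshold, with log2 fold changes of -0.90, -0.97, -0.95 and -1.15, as did sex as a covariate, at -0.70.

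The remaining tested members of the squamous list were keratins of activated keratinocytes, Krt16 and Krt17, the basal keratin Krt15 and the epidermal Krt10. Krt17 had 302, 554 and 279 counts in Tmem173fl/fl and 419, 288 and 221 in Tmem173iΔmye tumors (log2 fold change -0.32, SE 0.35). Krt15 had 85, 219 and 140 against 94, 72 and 109 counts (-0.71, SE 0.38), and Krt16 had 19, 56 and 10 against 19, 18 and 6 counts (-1.02, SE 0.73). Krt10 had 53, 28 and 66 against 50, 58 and 44 counts (0.050, SE 0.36). In each case the groups overlapped. Krt1, the partner of Krt10 in skin, had at most 4 counts in any tumor, and Krt2 and Krt77 had none.

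Tmem173fl/fl tumor 2 was the highest of the 6 tumors for 7 of the 8 squamous keratins tested, where it was the highest for 27.6% of all genes tested. Krt6a and Krt6b, keratins of activated keratinocytes outside the name pattern, had 72.7% and 78.8% of their FPKM there. Krt6a had 36, 481 and 27 against 50, 38 and 42 counts, and Krt6b 14, 195 and 13 against 16, 2 and 11 counts. Much of the sequence of each is shared with other genes, mostly with the other of the pair (57.2% of the 50-base stretches of Krt6a and 50.1% of those of Krt6b), so reads could be assigned to either. Krt33a and Krt33b had at most 5 counts. Trp63, the transcription factor of basal squamous cells, had 2, 38 and 2 counts in Tmem173fl/fl and 8, 1 and 3 counts in Tmem173iΔmye tumors.

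Of the 26 genes of the squamous programme, 15 passed the filter. A count in some tumor was present for 25, of which 9 (36.0%) were highest in Tmem173fl/fl tumor 2 and 7 (28.0%) in Tmem173iΔmye tumor 1, where 27.6% and 25.2% of all genes tested were. The 2 sets are unlike, since the 25 include genes under the filter, some with at most 1 or 2 counts in any tumor. The summed level of the 26 genes was lowest in Tmem173fl/fl tumor 2, at 560.0 FPKM there and between 614 and 797 FPKM in the other tumors. Ly6d, Perp and Sfn, which colon epithelium also makes, held most of the sum, and Tgm3, Sprr1a and Sprr2a1 were each near their lowest value there (16.1, 13.5 and 26.5 FPKM). Sprr1b was at 0 in all tumors and Flg and Dsg1a, genes of cornified skin, had at most 2 counts. Lor, which encodes loricrin of the cornified envelope, had 21, 26 and 117 counts in Tmem173fl/fl and 10, 14 and 12 counts in Tmem173iΔmye tumors and passed the study's threshold (log2 fold change -2.14, SE 0.68; adjusted p of 0.742 by edgeR), which it did not without Tmem173fl/fl tumor 3, at -1.02. Sfn, the epithelial 14-3-3 protein sigma, was higher in every Tmem173iΔmye tumor (126, 107 and 106 against 169, 138 and 134 FPKM, log2 fold change 0.38, SE 0.15). The log2 fold change of Grhl3, a transcription factor of barrier formation, was -0.57 (SE 0.32). In the list, 12 of 15 values lay below 0, with a median of -0.14.

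Tumor by tumor, squamous keratins summed to 46.2, 209 and 36.0 FPKM in Tmem173fl/fl and to 60.3, 76.4 and 60.0 FPKM in Tmem173iΔmye tumors. Simple keratins exceeded them 96.3, 19.9 and 123 times in Tmem173fl/fl tumors and 82.1, 57.1 and 71.4 times in Tmem173iΔmye tumors. The sum was thus highest and the ratio lowest in Tmem173fl/fl tumor 2, while the other tumors of that genotype had the lowest sums and the highest ratios, so the Tmem173iΔmye tumors lay within the Tmem173fl/fl range. Of all keratin FPKM, the squamous list took 0.982%, 4.37% and 0.757% against 1.14%, 1.61% and 1.31%, and the simple list took 94.6%, 86.9% and 92.8% against 94.0%, 92.1% and 93.8%.

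**Figure D3:**
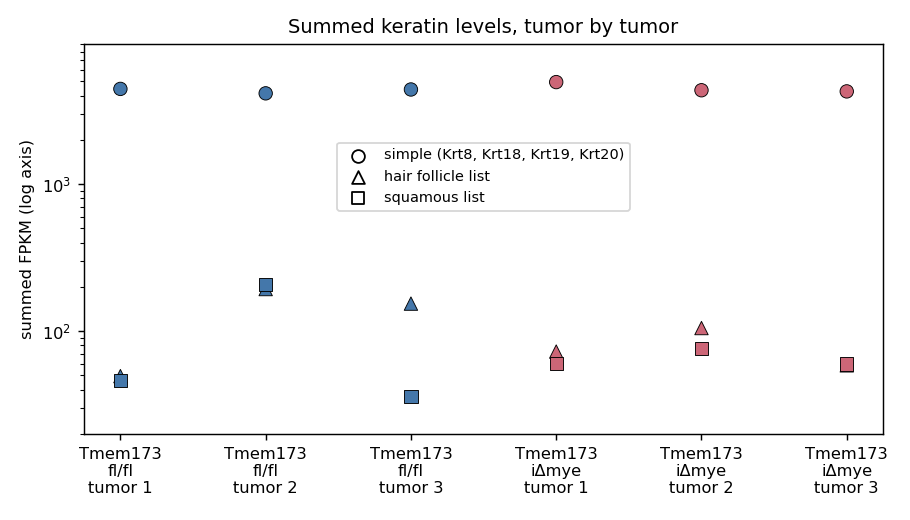
Summed FPKM (log axis) of the simple, hair follicle and squamous keratin lists in each tumor, blue for Tmem173fl/fl and red for Tmem173iΔmye. Simple sums stay between 4153 and 4954 FPKM, while squamous sums run from 36.0 to 209 FPKM within the Tmem173fl/fl group and from 60.0 to 76.4 FPKM in the Tmem173iΔmye group.

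The difference of the mean log2 squamous sums was -0.11 for Tmem173iΔmye over Tmem173fl/fl, against a pooled SD of 0.98, and that of the ratio of squamous to simple keratins was -0.17, against a pooled SD of 1.02. Both were far smaller than the spread between tumors. Without Tmem173fl/fl tumor 2 the direction turned, to 0.67 for the sum and 0.65 for the ratio. The 8 tested squamous keratins had a median log2 fold change of -0.57, with 7 below 0. For 5 of the 8 the direction also turned without that tumor: the log2 fold change of Krt5 was -3.15 (SE 1.99) with it and 3.07 without it, that of Krt13 -0.44 (SE 0.70) and 1.10, that of Krt14 -0.26 (SE 0.82) and 1.24, that of Krt17 -0.32 and 0.10, and that of Krt10 0.050 and -0.21. The other 3 stayed below 0 without it, Krt4 at -0.90, Krt15 at -0.26 and Krt16 at -0.014. Krt6a turned from -2.13 (SE 1.05) to 0.47. Krt6b, past the study's threshold at -2.98 (SE 1.21) with that tumor, stood at -0.46 without it, and it was also off the threshold when any Tmem173iΔmye tumor was left out, at values from -3.54 to -2.50. Outside Tmem173fl/fl tumor 2, Krt6b lay between 0.056 and 0.45 FPKM, so it passed the filter of 0.5 only through that tumor. Without that tumor Krt13 was past the study's threshold at an unadjusted p of 0.0010 and an adjusted p of 0.745 from edgeR.

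Across all 49 keratins, 0 of the 18 tested had an adjusted p under 0.05 from edgeR, as for all genes (0%), and 3 had an unadjusted p under 0.05, against 6.14% of all genes tested. By DESeq2, 1 keratin, Krt90, had an adjusted p under 0.05, against 0.164% of all genes tested. At the study's threshold (log2 fold change of 1 or more in either direction and an unadjusted p of at most 0.05), edgeR gave 3 of the 18, Krt90 and Krt4 lower and Krt87 higher in Tmem173iΔmye tumors, where 2.12% of all genes tested passed. The groups did not overlap for 2 of the 18, Krt90 and Krt87, against 12.4% of all genes tested. Log2 fold changes lay below 0 for 10 and above 0 for 8 keratins, with a median of -0.29.

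**Figure D4:**
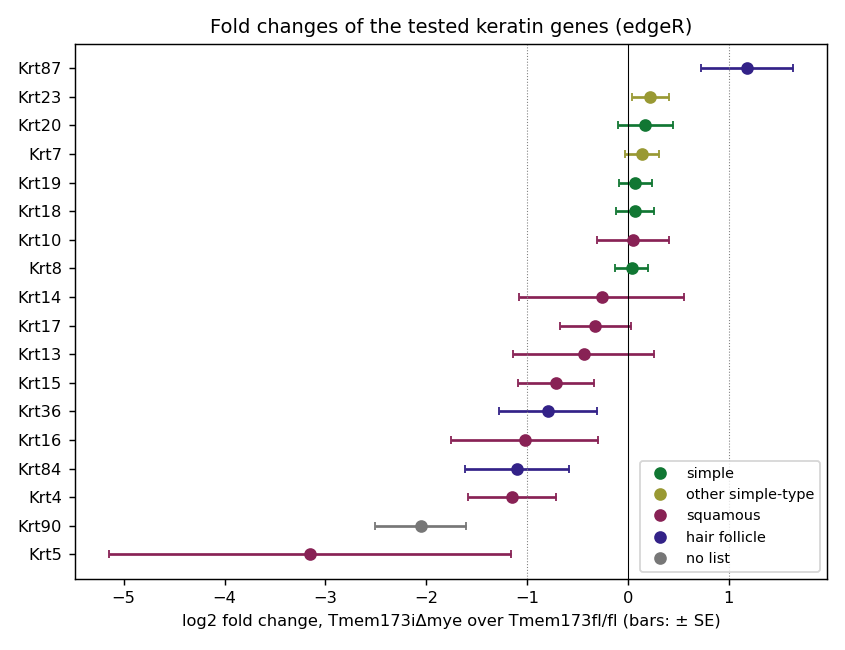
Log2 fold changes of the 18 tested keratins, Tmem173iΔmye over Tmem173fl/fl, from edgeR, with bars of ± SE and dotted lines at a log2 fold change of -1 and 1. The 4 simple keratins lie between 0.037 and 0.17 with short bars, whereas Krt5 lies at -3.15 with an SE of 1.99.

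Krt90 differed most steadily. This type II keratin gene (ENSMUSG00000048699, GRCm38 chromosome 15, 101552356 to 101562950, minus strand) had 756, 1564 and 428 counts in Tmem173fl/fl and 234, 226 and 221 counts in Tmem173iΔmye tumors. In FPKM these were 19.1, 41.3 and 10.1 against 5.81, 5.57 and 5.52, so the Tmem173iΔmye tumors were nearly alike and all below the lowest Tmem173fl/fl tumor. The means were 23.5 ± 16.0 FPKM (SD, n = 3) and 5.64 ± 0.156 FPKM (SD, n = 3). The log2 fold change was -2.05 (SE 0.45, unadjusted p = 0.0021; adjusted p of 0.742 by edgeR). DESeq2 gave -2.06 with an adjusted p of 0.0027, and over the other settings of the analysis the adjusted p was 0.0973 or above. Krt90 kept its direction and its place past the study's threshold under every alternative tried, with a log2 fold change of -1.38 without Tmem173fl/fl tumor 2. It shares 3.58% of its stretches with another gene, a miRNA on the opposite strand with no count.

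On the same chromosome, Krt84 lies next but one before Krt90 in the order of keratin genes, with Krt82 between them. Krt84, a hard keratin of nail and tongue, had 8.61, 31.9 and 17.8 FPKM in Tmem173fl/fl and 4.60, 13.6 and 8.90 FPKM in Tmem173iΔmye tumors. Tumor 2 was the highest of each genotype, and the groups overlapped (log2 fold change -1.10, SE 0.51, unadjusted p = 0.0651; adjusted p of 0.742 by edgeR). Without Tmem173fl/fl tumor 2 the log2 fold change was -0.55. DESeq2 put it past the study's threshold, at -1.11 with an unadjusted p of 0.0206. Krt82 had at most 1 count in any tumor.

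Krt36, a type I hard keratin of hair, nail and tongue, was the highest of the hair follicle list and ranked next below Krt20 by mean level. It had 37.8, 157 and 132 FPKM in Tmem173fl/fl and 55.5, 87.5 and 44.8 FPKM in Tmem173iΔmye tumors, which overlapped (log2 fold change -0.79, SE 0.48; adjusted p of 0.751 by edgeR). In Tmem173fl/fl tumor 2, Krt36 stood above Krt20, and in the other tumors below it. Without Tmem173fl/fl tumor 1 its log2 fold change was -1.20 and past the threshold, and without Tmem173fl/fl tumor 2 it was -0.44.

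Krt87, a type II hair keratin (chromosome 15, 101431038 to 101438804, minus strand), had 87, 99 and 101 counts in Tmem173fl/fl and 402, 126 and 130 counts in Tmem173iΔmye tumors. Every Tmem173iΔmye tumor was higher, but most of the difference came from tumor 1. The log2 fold change was 1.18 (SE 0.46, unadjusted p = 0.0336; adjusted p of 0.742 by edgeR), and 0.41 without Tmem173iΔmye tumor 1. It was off the threshold when any Tmem173fl/fl tumor was left out, at values between 1.13 and 1.24, and with sex as a covariate, at 0.97. In Krt87, 36.9% of the 50-base stretches occur in another gene, most often in Gm49425, which had at most 1 count in any tumor. The same Tmem173iΔmye tumor 1 had the highest S100a8 and S100a9, genes of neutrophils and inflamed epithelium, at 169 and 263 FPKM against at most 66.6 and 66.2 FPKM in the other tumors, and its 10 immune markers summed to 606 FPKM against 83.5 to 257 FPKM. Their part in the Krt87 value was not tested.

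**Figure D5:**
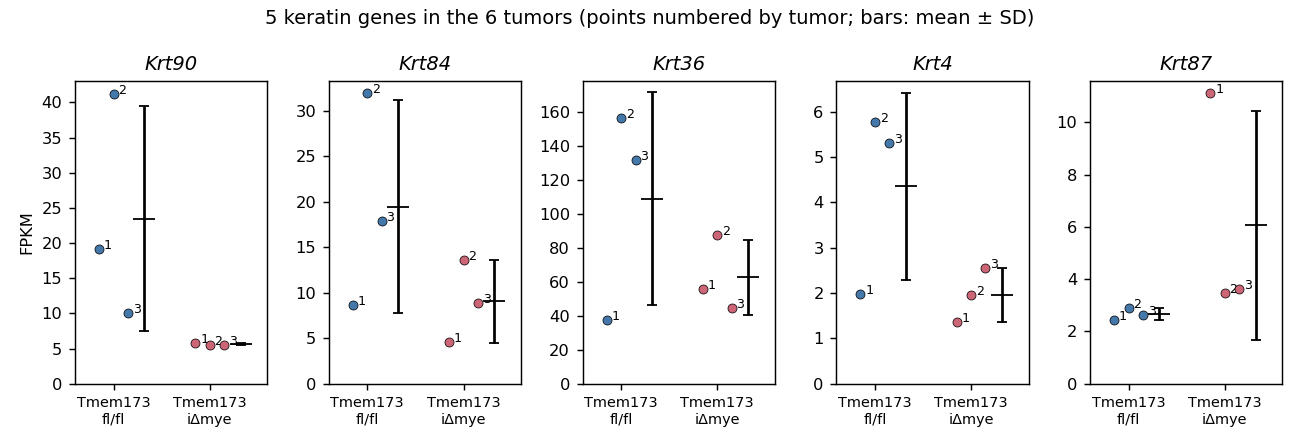
FPKM of Krt90, Krt84, Krt36, Krt4 and Krt87 in each tumor (points numbered by tumor, mean and SD beside them). Krt90 lies between 5.52 and 5.81 FPKM in the Tmem173iΔmye tumors and at 10.1 FPKM or above in the Tmem173fl/fl tumors, and Krt87 reaches 11.1 FPKM in Tmem173iΔmye tumor 1 alone.

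In the order of all 18 levels, the 17 pairs of neighbours had ranges over the tumors that overlapped in 14 cases and were apart in 3, those between Krt8, Krt19, Krt18 and Krt20. Krt36, Krt7 and Krt23, with means of 85.7, 82.9 and 80.3 FPKM, changed places among tumors, as did Krt90, Krt84 and Krt17, with means of 14.6, 14.2 and 14.1 FPKM.

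The 31 keratins under the filter were near or at the limit of detection. Of these, 8 reached 10 counts in some tumor: Krt80, Krt12, Krt35, Krt83, Krt222, Krt78, Krt32 and Krt34. Krt80, a type II keratin of many epithelia, had 21, 48 and 26 counts in Tmem173fl/fl and 45, 21 and 41 in Tmem173iΔmye tumors, and Krt12, the keratin of the cornea, had at most 26. Another 14 had between 1 and 9 counts at most. The last 9, Krt2, Krt24, Krt25, Krt26, Krt28, Krt71, Krt72, Krt73 and Krt77, were at 0 in every tumor. Of the 25 members on chromosome 11, 10 passed the filter, and of the 24 on chromosome 15, 8.

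Genes for proteins that anchor keratin filaments at junctions all passed the filter. Log2 fold changes were negative for 13 of the 15 genes of this list (median -0.15), where 8315 of the 16426 genes tested lay below 0. Ppl, the linker periplakin, had 9.98, 13.8 and 9.79 FPKM in Tmem173fl/fl and 6.82, 7.42 and 7.87 FPKM in Tmem173iΔmye tumors, without overlap (log2 fold change -0.60, SE 0.16, unadjusted p = 0.0063; adjusted p of 0.742 by edgeR). None of the 15 reached the study's threshold. Fam83h, a protein that organizes keratin filaments, and Dsg2, the desmosomal cadherin of simple epithelia, were at -0.27 (SE 0.19) and -0.26 (SE 0.20). Ppl, Fam83h and Dsg2 were each highest in Tmem173fl/fl tumor 2, Fam83h and Dsg2 with 65.6 and 87.7 FPKM there. So were Jup, Pkp2, Pkp3, Dsc2, Evpl, Eppk1, Itga6, Itgb4 and Col17a1, and only Dsp, Plec and Dst were highest in another tumor. Of all genes tested, 27.6% were highest in that tumor. Its part in the negative values of this list was not tested. When one tumor was left out, Ppl ran from -0.69 to -0.43, Fam83h from -0.37 to -0.056 and Dsg2 from -0.34 to -0.077.

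Among the 14 other intermediate filament genes, 8 were tested and 1 passed the study's threshold, against 2.12% of all genes tested. Des, the desmin of muscle, had 19.0, 14.9 and 19.5 FPKM in Tmem173fl/fl and 6.61, 4.75 and 15.2 FPKM in Tmem173iΔmye tumors, which overlapped (log2 fold change -1.01, SE 0.40; adjusted p of 0.742 by edgeR). Des was off the threshold without Tmem173fl/fl tumor 1 or 3 or Tmem173iΔmye tumor 1 or 2, at -0.96, -0.94, -0.84 and -0.71. Synm, its muscle partner synemin, was at -0.63 (SE 0.29), the nuclear lamin gene Lmnb1 at 0.25 (SE 0.21), and Vim, the vimentin of mesenchymal cells, at 0.20 (SE 0.20). The stroma and smooth muscle list had 4 of 10 values below 0 and 0 past the threshold, with Cnn1 and Myh11, genes of smooth muscle, at -0.68 (SE 0.36) and -0.48 (SE 0.29) and Dcn, of fibroblasts, at 0.32 (SE 0.18). Of the immune list, 8 of 10 values lay above 0, and Jchain, of antibody-secreting cells, passed the threshold (73.6, 27.8 and 34.9 against 149.8, 53.5 and 90.1 FPKM, log2 fold change 1.10, SE 0.46; adjusted p of 0.742 by edgeR), but not without Tmem173fl/fl tumor 2 or 3 or Tmem173iΔmye tumor 1 or 3, at 0.84, 0.94, 0.65 and 1.15. S100a9 and S100a8 were at 1.30 (SE 0.82) and 0.90 (SE 0.82).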

How the data were processed

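One table deposited by the authors holds raw counts of reads on each gene, and FPKM beside them, for 6 tumors. Per the labels, reads were filtered with fastp, aligned with HISAT2 2.0.5 to GRCm38/mm10 and counted with featureCounts 1.5.0-p3, and the comparison was made with DESeq2 1.20.0. The strand setting and annotation release are not given in the sources used here. Recomputing the deposited FPKM from the counts, gene lengths, DESeq-type size factors and the geometric mean of the totals gave the same values (largest relative difference 5.0e-07). The authors' own 5 comparison columns (fold change, p-values) were not used.

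The quasi-likelihood test of edgeR 4.0.16 (run in R 4.3.3) was applied to the counts with TMM scaling and no covariate, and p-values were adjusted by Benjamini-Hochberg over 16426 genes, those whose mean FPKM reached 0.5. The SE was derived from the log2 fold change and its F statistic. The threshold of the study is a log2 fold change of 1 or more in either direction at an unadjusted p of at most 0.05. DESeq2 1.42.0, limma 3.58.1 (voom, and log2 FPKM with pseudocounts of 1 and 0.1), other filters and scaling, the replicate number as a block, sex and leaving out each tumor were alternatives. DESeq2 gave no p for Krt5, Krt6a and Krt6b, and these stayed without one. Sums over keratins were compared on a log2 scale with no test. The code was tested on simulated counts.

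The genes named are the 4 simple keratins, every other keratin over the filter, Krt6a, Krt6b, Trp63, Epcam, Cdh1, Vil1, Cdx2, Vim and, in each companion list, up to 3 genes with the lowest p. Keratins under the filter are named where they reach 10 counts, and Krt1, Krt81, Krt82, the keratins at 0, Krt33a, Krt33b, Flg, Dsg1a, Sprr1b, Ly6d, Perp, Tgm3, Sprr1a, Sprr2a1, Dsg3, Pkp1, Tgm1, Lypd3, Calml3, Gm49425, Gm11597 and Krt8-ps were added after their values were seen. The same holds for the genes other than Ppl, Fam83h and Dsg2 in the list of proteins that anchor keratin filaments. The keratins and lists were chosen with earlier results of these data known. The numbers of the replicates come from the sample titles. Totals of 15329810 to 16533732 counts per tumor set the precision, and no fold change is given for a gene that never exceeds 3 counts. Shared sequence was counted as 50-base stretches of a gene's exons found in another gene.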

Additional observations from a re-analysis of the deposited data

How the results depend on the processing

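Of 671 values of the 42 named genes under alternative settings, 590 kept their direction and their side of the study's threshold, 42 lost it, 13 gained it and 26 turned direction. The number of keratins past the threshold was 6 with no low-value filter (Krt32, Krt4, Krt5, Krt84, Krt87 and Krt90), 4 with DESeq2, and 1 (Krt90) with limma voom, with limma on log2(FPKM + 1), with limma on log2(FPKM + 0.1) and with sex as a covariate. It ran from 1 to 4 when one tumor was left out. The number with an adjusted p under 0.05 was 1 with DESeq2 (Krt90) and 0 in the other settings. The numbers of replicates were not taken to pair the tumors, since same-numbered tumors had correlations of their deviations across genes of 0.31, 0.0085 and 0.15, and not every tumor correlated best with its own number. With the replicate number as a block, 3 keratins (Krt4, Krt84 and Krt90) were past the threshold and 0 had an adjusted p under 0.05. For the sums the block leaves the difference as it was by construction, at 0.060 for the simple and -0.11 for the squamous keratins, and so tests nothing. Relative to the epithelial genes the summed simple keratins were at -0.19, with no spread computed.

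Directions turned for Krt14 (0.37 with limma voom, 0.29 and 0.34 with limma on log2 FPKM plus 1 and plus 0.1, 0.27 with the block), Krt13 (0.22, 0.15, 0.19 and 0.23 in the same settings and 0.039 with sex as a covariate), Krt5 (0.0077 with the block) and Krt10 (-0.038 with sex as a covariate). The cause was not tested. When one tumor was left out, log2 fold changes ran from -0.035 to 0.071 for Krt8, -0.0091 to 0.12 for Krt19, -0.11 to 0.15 for Krt18, -0.070 to 0.47 for Krt20, -0.76 to 1.24 for Krt14, -0.87 to 1.10 for Krt13, -0.60 to 0.10 for Krt17, -5.12 to 3.07 for Krt5, -0.21 to 0.27 for Krt10, -2.64 to 0.47 for Krt6a, -0.018 to 0.23 for Cdh1, -0.32 to 1.72 for S100a9 and -0.55 to 1.52 for S100a8. The summed simple keratins ran from -0.0054 to 0.10, the squamous sum from -0.59 to 0.67 and the ratio from -0.67 to 0.65. The squamous sum and the ratio thus took either sign, depending on the tumor left out. With 3 tumors per group, how small a difference of squamous keratins could be detected was not tested.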

Other observations

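Several hair follicle keratins under the filter were uneven among tumors at very low counts. Krt81, a type II hair keratin, had 7 counts in Tmem173iΔmye tumor 1 and 0 in the others, the tumor that also had the most counts of Krt87, which lies close by on chromosome 15 with Krt88 between them. Krt32 had 0, 11 and 12 counts in Tmem173fl/fl and 2, 1 and 0 counts in Tmem173iΔmye tumors, and Krt34 had 3, 0 and 12 against 0, 1 and 1. Krt83 had 2, 9 and 2 against 11, 5 and 16 counts. Krt81 shares 32.9% of its 50-base stretches with Krt86 and Krt83 shares 18.8% with it, and reads from such stretches cannot be told apart. These genes were chosen after their values were seen.

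The processed pseudogene Krt8-ps, which holds 26.9% of the stretches of Krt8, had 135, 131 and 133 counts in Tmem173fl/fl and 72, 145 and 122 counts in Tmem173iΔmye tumors, against at least 62355 counts of Krt8 in each tumor.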
